A study of Mus musculus with 6 samples.

Results

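The subject of this section is miR-21, read on the array by the entry mmu-miR-21, which is 1 of 611 mouse entries. It was chosen by name: every spot whose annotation, without its version suffix, is mmu-miR-21 was read, and the star form was kept apart. This gave 2 probes, A_54_P1307 and A_54_P1308, with 10 spots each on each array. MCT cells, a tubular epithelial line derived from the kidney of SJL H-2S mice, were profiled on 6 one-colour arrays of a single slide. The control group (3 arrays) received no TGFβ, and the TGFβ group (3 arrays) was exposed to it at 3 ng/ml for 72 hours. The labels' protocols state that cells grown in 10% fetal calf serum were moved to 0.5% serum the day before TGFβ was added, and the same text is given for the controls. Each array received Cy3-labelled RNA from 100 ng of total RNA, so a difference in miR-21 per cell and one in total RNA per cell cannot be told apart. All arrays come from 1 cell line, and nothing in the labels says that replicates were separate cultures, so the p-values below measure only how these samples vary, and that variation may be technical.

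miR-21 is a small RNA that represses mRNAs such as those of Pdcd4 and Smad7, and it is known to rise in injured and fibrotic kidney. TGFβ acts through receptor-activated SMAD proteins, which are reported to raise miR-21 both by transcription and by promoting the cutting of its primary transcript by Drosha. The SMADs are reported to contact a short element in the stem of that transcript.

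The mature sequences show what the entry reads and which relatives lie close to it. They are RefSeq sequences on GRCm38.p6, and the capitals mark the seed, bases 2 to 8 from the 5′ end, which pairs with target mRNAs.

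miR-21a-5p: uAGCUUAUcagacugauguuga

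miR-21a-3p: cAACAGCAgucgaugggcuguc

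miR-21b: uAGUUUAUcagacugauauuucc

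miR-21c: uAGCUUAUcagacugguacaa

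The array design uses the older name miR-21 for miR-21a-5p, and miR-21* for miR-21a-3p, the opposite arm of the same hairpin. Of 1738 mature mouse sequences in the RefSeq table, 2 carry this seed, miR-21a-5p and miR-21c. The table has no entry for miR-590-5p, which is on the array and was detected on 0 arrays. miR-21a-5p has 22 bases, miR-21b 23 and miR-21c 21, and only the positions that each shares with miR-21a-5p were compared. With positions counted from the 5′ end of miR-21a-5p, miR-21b departs from it by C4U, G18A, G21U and A22C, so that its seed differs. miR-21c keeps the seed and departs by A16G, G18A, U19C, U20A and G21A. Neither miR-21b nor miR-21c is named among the 611 entries. Whether their RNA adds to the miR-21 signal was not tested.

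The 92-base hairpin gene Mir21a lies on the minus strand at chr11:86584067-86584158. It lies inside the span of Vmp1, a gene for an autophagy membrane protein (chr11:86583858-86683836), at 209 bases from its 3′ end. No exon or intron boundaries were used here. These are GRCm38.p6 coordinates, whereas the array headers name the older mouse build, so they locate the gene and were not used for the measurements. The letters CAGAC, the element reported for SMAD contact, were searched on the RNA strand as given. They occur once in the hairpin, at bases 9 to 13 of the mature strand, just after the seed, as capitals show here.

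miR-21a-5p: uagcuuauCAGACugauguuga

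The same letters occur in 32 of the 1738 mature sequences (1.84%) and in 80 of 1005 hairpins (7.96%). Of the tested miRNAs, 73 matched a hairpin in the table, and miR-21 was the 1 that held the letters. A match of letters is a description and shows no binding.

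miR-21 was the brightest mouse miRNA entry of these cells, with or without TGFβ. It ranked 1 of 611 by signal on the 3 control arrays and on TGFβ 2 and 3, and 2 on TGFβ 1, where miR-1224 was brighter. Ranking by Agilent's total gene signal gave the same ranks on all 6 arrays. Before scaling, its signal was 3869.65, 1815 and 1878 intensity units on controls 1 to 3. It was 4297, 3300.45 and 4362 on TGFβ 1 to 3. Controls 2 and 3 thus stood below all other arrays, and control 1 stood among the TGFβ arrays. These unscaled values also carry the brightness of the whole array, which was lowest on controls 2 and 3. The 75th percentile over the 105 probes detected on all arrays was 363.7, 268.6 and 249.5 units on controls 1 to 3. It was 365.3, 402.4 and 339.9 units on TGFβ 1 to 3. miR-21 held 16.5%, 11.2% and 12.1% of the summed mouse signal on controls 1 to 3. The shares were 7.89%, 13.0% and 20.4% on TGFβ 1 to 3. On TGFβ 1 the sum includes the brighter miR-1224, and the ratio of miR-21 to it was 0.168 there. Signal depends on how well each probe binds, so ranks and shares order brightness and not the number of molecules.

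The entries next in median rank were let-7b, miR-29a and let-7c. let-7b, a member of a family linked to differentiation, ranked 2 on 5 arrays and 4 on TGFβ 1. miR-29a, a repressor of collagen mRNAs, ranked 3, 6 and 6 on controls 1 to 3, and 5, 3 and 3 with TGFβ. let-7c ranked 5, 3 and 3 on the controls and 8, 4 and 5 on the TGFβ arrays. Among the 7 entries below miR-21 in median rank, miR-34a, a p53 target, had the widest range of ranks. It ranked 4, 13 and 12 on controls 1 to 3 and between 4 and 6 on the TGFβ arrays.

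**Figure D1:**
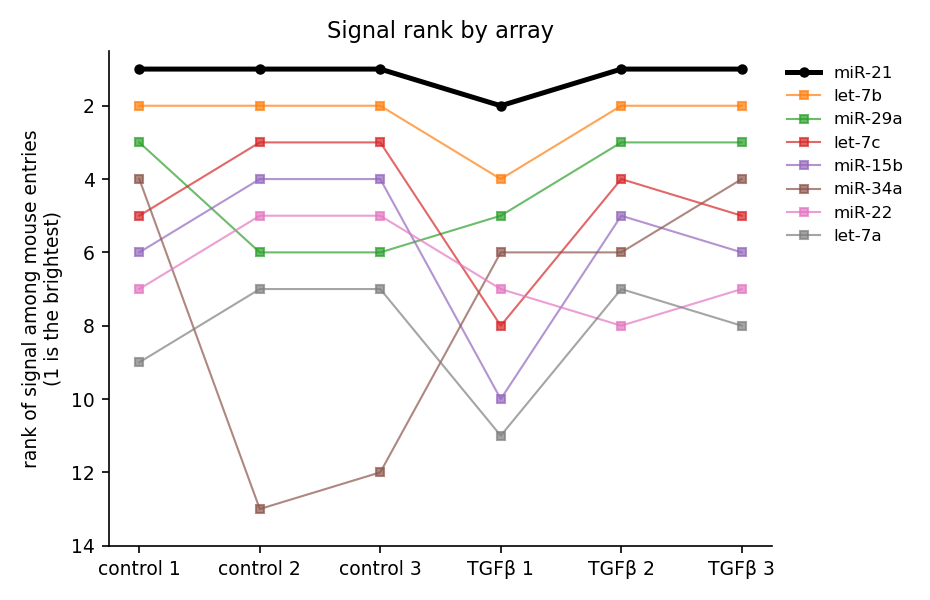
Rank of the unscaled signal among 611 mouse entries on each array (y axis, 1 is the brightest) for miR-21 and the 7 entries next in median rank. Lines only join the points of 1 miRNA. miR-21 ranked 1 on 5 arrays and 2 on TGFβ 1, while miR-34a ranked 13 and 12 on controls 2 and 3.

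After scaling, miR-21 had a higher mean with TGFβ, but the groups overlapped and the difference did not pass the test. Arrays were scaled to a common 75th percentile, taken over the 105 probes that all arrays detected, and put on a log2 scale. The log2 scaled signal was 11.76, 11.11 and 11.26 on controls 1 to 3. With TGFβ it was 11.91, 11.39 and 12.03 on arrays 1 to 3. Control 1 lay above TGFβ 2 and below the other TGFβ arrays. The group means were 11.38 ± 0.34 in control and 11.78 ± 0.34 with TGFβ (SD, n = 3). The log2 difference was 0.40 (SE 0.26), which is 1.32-fold with a 95% interval from 0.851 to 2.04. Over 84 tested miRNAs limma gave an adjusted p of 0.433. The exact two-sided permutation p of the same 6 values was 0.2, where 3 against 3 cannot go below 0.1.

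In the same fit 0% of the 84 miRNAs passed an adjusted p of 0.05, and 8 had an unadjusted p under 0.05 in limma. By size of the difference miR-21 ranked 14 of 84 from the top (7 of the 70 detected on all arrays), and by p it ranked 32 of 84. Some miRNAs above it in size, such as miR-714 and miR-494, were not detected on all arrays. The smallest p in each direction belonged to miR-125b-5p, at 1.00 (SE 0.32), and miR-98, a let-7 relative, at -0.53 (SE 0.18), both with a limma adjusted p of 0.391. The groups did not overlap for 14.3% of the tested miRNAs, and miR-21 was not among these.

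**Figure D2:**
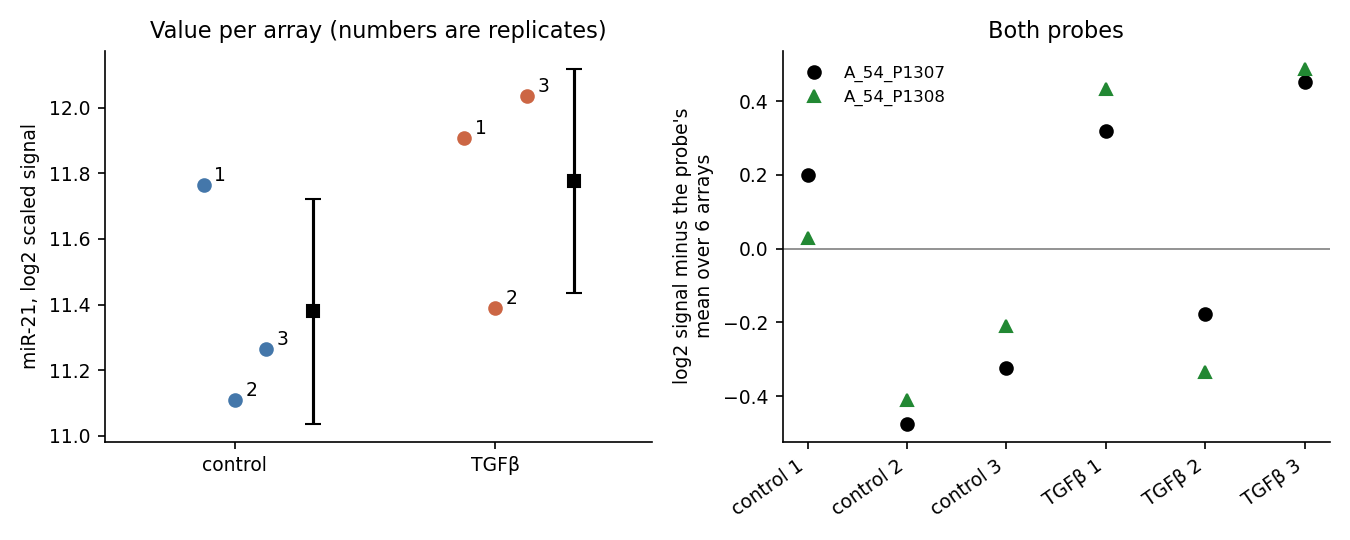
Left, log2 scaled signal of miR-21 on each array by group, with replicate numbers; squares and bars are the group mean and SD (n = 3). Right, the log2 scaled signal of each of the 2 probes minus that probe's own mean over the 6 arrays. Control 1 (11.76) lies above TGFβ 2 (11.39), and both probes place controls 2 and 3 and TGFβ 2 below their mean.

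The overlap came from control 1 and TGFβ 2, which lay in the same column of the slide. Over the tested miRNAs control 1 also stood nearer to the TGFβ arrays than to its group, with a median absolute log2 difference of 0.16 from TGFβ 3 and 0.48 and 0.52 from controls 2 and 3. Without control 1 the miR-21 groups did not overlap, at 11.16 in control and 11.74 with TGFβ. The difference was then 0.58 (SE 0.23) and did not pass (limma adjusted p = 0.112), while 36.5% of 85 miRNAs passed in that fit. Without both control 1 and TGFβ 2 the difference was 0.78 (SE 0.12, limma adjusted p = 0.0151), or 2 arrays against 2, with 38 of 86 miRNAs passing. These arrays were left out after their values were seen, and leaving them out removes the overlapping values by construction.

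Arrays that shared a slide column gave opposite signs. In column 1, miR-21 was at -0.38 in TGFβ 2 relative to control 1. In column 2, it was at 0.93 in TGFβ 3 relative to control 2. Columns 3 and 4 held 1 array each. Blocking on slide column gave a difference of 0.28 (SE 0.42, limma adjusted p = 0.941). All 3 controls and TGFβ 1 lay in slide row 1. TGFβ 2 and 3 lay in row 2, which held no control, so treatment and row cannot be fully told apart. A fit blocked on row put miR-21 at 0.53, which rests on TGFβ 1 alone against the controls. Pairing arrays by replicate number gave 0.14, 0.28 and 0.77 for numbers 1 to 3, higher with TGFβ in 3 of 3 pairs. The labels do not say that equal numbers mark a pair. With the replicate number as a block the difference stayed at 0.40 (SE 0.24) and did not pass (limma adjusted p = 0.447).

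The 2 probes gave the same picture. Probe A_54_P1307 differed by 0.40 (SE 0.26, limma adjusted p = 0.448 over 128 probes), with 12.25 ± 0.35 in control and 12.64 ± 0.33 with TGFβ (SD, n = 3). Probe A_54_P1308 differed by 0.39 (SE 0.27, limma adjusted p = 0.457), with 8.86 ± 0.22 and 9.26 ± 0.46 (SD, n = 3). Relative to its own mean, A_54_P1307 read 0.20, -0.48 and -0.32 on controls 1 to 3, then 0.32, -0.18 and 0.45 with TGFβ. A_54_P1308 read 0.03, -0.41 and -0.21, then 0.43, -0.34 and 0.49. The probes thus differed most on control 1 and TGFβ 2, where A_54_P1308 was the lower of the pair by this measure. Within columns 1 and 2 they gave -0.38 and 0.93 for A_54_P1307 and -0.37 and 0.90 for A_54_P1308.

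The spots of miR-21 were more spread on control 1 and TGFβ 2 than on the other arrays. All 20 miR-21 spots were well above background on all 6 arrays and none was saturated. 1 spot, of A_54_P1308 on control 2, was marked an outlier and left out of the probe values given above. The means and spreads of spots that follow include outlier-marked spots. The spots of A_54_P1307 had a mean of 7133, 3299 and 3404 units on controls 1 to 3, with a coefficient of variation (CV) of 17.3%, 5.22% and 4.03%. On TGFβ 1 to 3 the means were 7787, 6079.85 and 7944, and the CVs 6.05%, 15.1% and 4.43%. For A_54_P1308 the CVs were 15.2%, 9.22% and 5.48% on the controls and 5.36%, 19.6% and 6.56% on the TGFβ arrays. The same held over all 105 detected probes, whose median CV was 15.9% on control 1 and 15.1% on TGFβ 2, against 7.43% to 8.96% elsewhere.

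**Figure D3:**
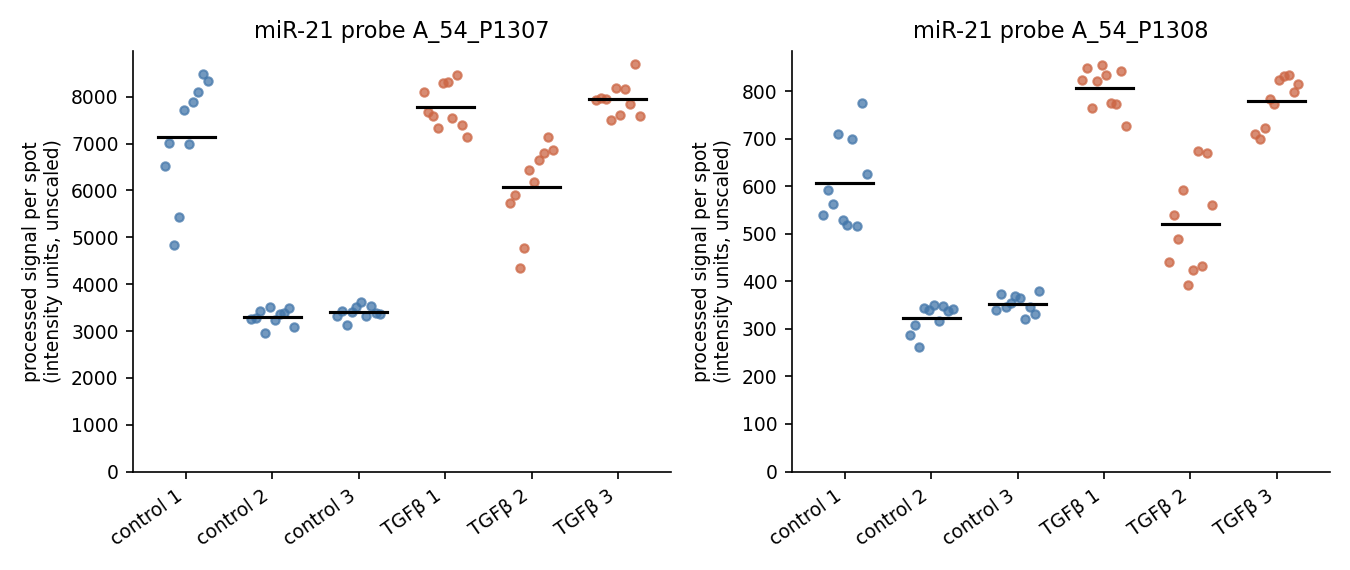
Unscaled processed signal (intensity units) of each of the 10 spots of both miR-21 probes on each array, in the order of the spots' column on the array, with the mean as a bar. Spots on controls 2 and 3 lie close together and low, spots on TGFβ 1 and 3 close together and high, and spots on control 1 and TGFβ 2 are spread widely. Controls 2 and 3 were also the dimmest arrays as a whole.

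On those 2 arrays signal was higher at one side. The spots of A_54_P1307 in array columns above 41 had a mean of 8307 (3 spots) on control 1, against 6629 for the 7 spots in the other columns. On TGFβ 2 the means were 6927 and 5717. The log2 ratio of these means was 0.33 and 0.28, and between -0.03 and 0.03 on the other 4 arrays. For A_54_P1308, with 2 spots above column 41, it was 0.27 and 0.31, and between -0.05 and 0.09 on the other 4. On control 1 and TGFβ 2 the Pearson r of signal with array column was 0.77 and 0.75 for A_54_P1307. For A_54_P1308 it was 0.25 on both, so its spread there followed the column less closely. The 10 spot positions also ranked alike on control 1 and TGFβ 2, with a Pearson r of log2 signal of 0.995 for A_54_P1307 and 0.949 for A_54_P1308. For control 2 and TGFβ 3, which shared column 2 of the slide, r was 0.82 and 0.75. Over the 13 pairs of arrays in different slide columns r lay between -0.17 and 0.57 for A_54_P1307 and between -0.43 and 0.30 for A_54_P1308. These are descriptions over 10 spots of 1 probe, which share array and RNA. With only the spots in array columns above 41, the miR-21 difference was 0.39 (SE 0.27, limma adjusted p = 0.458), close to the value from all spots.

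The choice of scaling moved the miR-21 difference further. Without scaling, miR-21 differed by 0.74 (SE 0.34, limma adjusted p = 0.331), but the median over all tested miRNAs moved as well, from -0.09 to 0.26. Relative to that median miR-21 stood 0.49 higher in both cases. This could not change, because 1 factor per array shifts the differences of all miRNAs above the floor alike. Quantile normalization turned the difference to -0.55 (SE 0.48, limma adjusted p = 0.498). It gives the brightest probe 1 fixed value on every array. A_54_P1307 was the brightest of 1759 probes on 5 arrays, where it was set to 13.53, and the third brightest on TGFβ 1, where it was set to 11.60. Averaged with the dimmer probe, miR-21 then read between 12.58 and 12.65 on those 5 arrays and 10.87 on TGFβ 1. A_54_P1308, which ranked between 10 and 23, kept a positive difference of 0.50 (SE 0.32) there. Array weights estimated from the data gave 0.69 (SE 0.17, limma adjusted p = 0.0146), with 45 of 84 miRNAs passing. They set control 1 at 0.14 and control 2 at 3.71, and the estimation stopped before its tolerance was reached. The limma adjusted p of miR-21 ranged from 0.0146 to 0.976 over 24 alternatives, and its difference was above 0 in 23 of them. Some of the 24, such as those that change only which miRNAs were tested, could not move its difference.

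**Figure D4:**
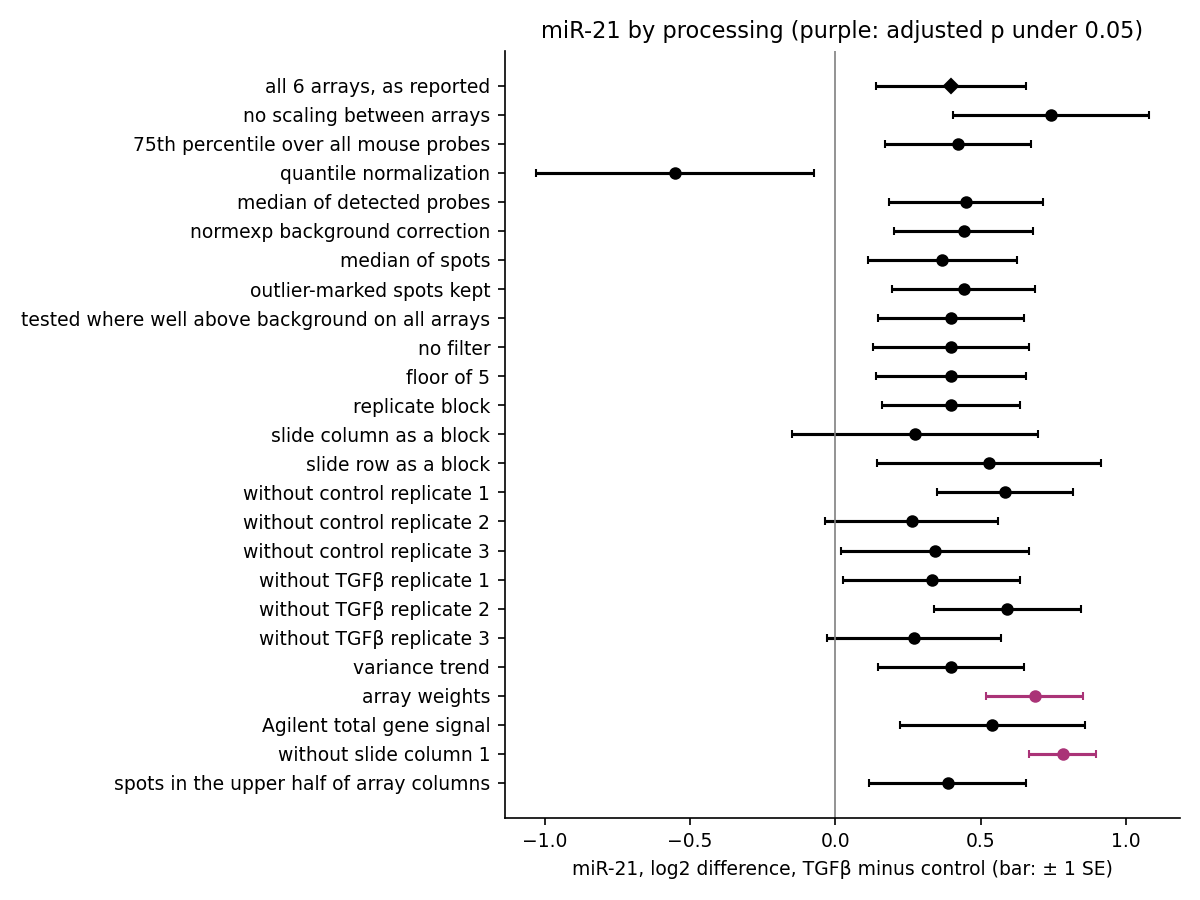
Log2 difference of miR-21, TGFβ minus control (x axis), with 1 SE as a bar, for the reported fit (diamond) and 24 alternatives. Only quantile normalization (-0.55) falls below 0, and array weights (0.69) and leaving out slide column 1 (0.78) are the 2 with an adjusted p under 0.05.

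The star form, miR-21*, was not detected. Of its 20 spots from 4 probes, 1 was well above background on control 1 and 0 on each other array. Its mean processed signal lay between -3.44 and 3.92 intensity units over the 6 arrays, and the SD of its spots between 3.99 and 10.1 units. No fold or ratio of the arms is given, because the probes of the 2 arms bind differently and this arm was not well above background in either group.

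miRNAs whose pattern over the 6 arrays was most like that of miR-21 were miR-20b (Pearson r = 0.91), miR-34c (0.90), miR-449a (0.88), miR-34a (0.84) and miR-1906 (0.84). miR-34c and miR-34a were well above background on 6 arrays, miR-20b and miR-449a on 4 (1 control and 3 TGFβ arrays) and miR-1906 on the 3 TGFβ arrays only. With normexp background correction r stayed high for miR-34c (0.97) and miR-34a (0.88) and fell below 0 for miR-20b, miR-449a and miR-1906. With quantile normalization it was -0.31 for miR-34c, -0.07 for miR-34a and -0.22 for miR-1906, against 0.21 for miR-20b and 0.36 for miR-449a, so none of the 5 likenesses held under both. The log2 scaled signal of miR-34a was 10.10, 8.65 and 8.83 on controls 1 to 3, and 10.27, 9.94 and 9.97 on the TGFβ arrays. It was thus low on controls 2 and 3, as miR-21 was, but high on TGFβ 2, where miR-21 was not. Its difference was 0.87 (SE 0.40, limma adjusted p = 0.391). The lowest r belonged to let-7c (-0.96), let-7a (-0.95) and let-7f (-0.95). This opposition depended on the scaling, since without it r was 0.24, -0.07 and -0.57, and with quantile normalization 0.79, 0.80 and 0.72. All of these are descriptions over 6 arrays that share their scaling.

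**Figure D5:**
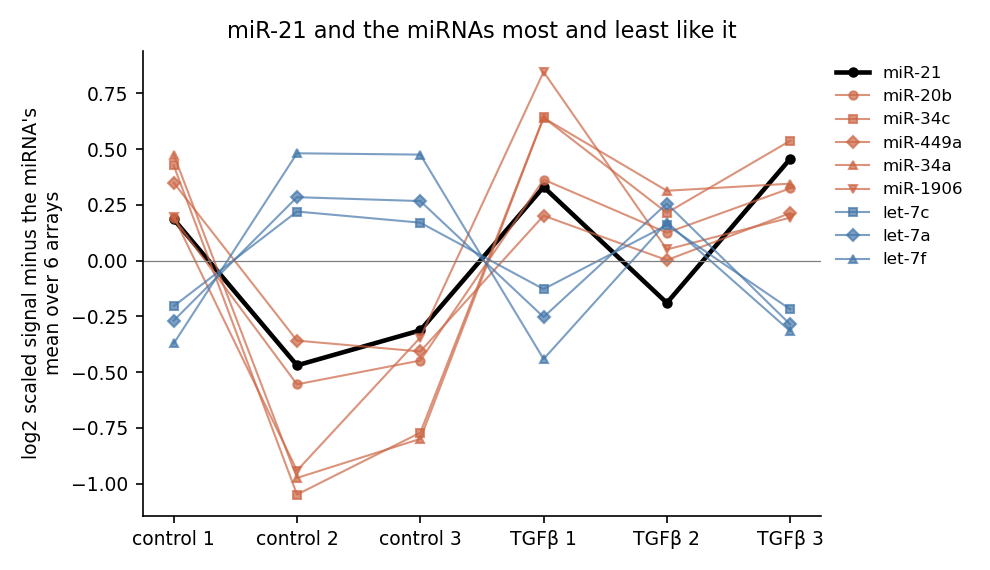
Log2 scaled signal of each miRNA minus its own mean over the 6 arrays, for miR-21 (black), the 5 tested miRNAs with the highest Pearson r with it (orange) and the 3 with the lowest (blue). Lines only join the points of 1 miRNA. miR-21 is low on controls 2 and 3 and also on TGFβ 2, where the miRNAs in orange are not.

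Other miRNAs tied to TGFβ or fibrosis were followed beside miR-21. Over the whole array 107 of 611 entries (17.5%) were detected on at least 1 array. Of 12 that are known from renal fibrosis or TGFβ-treated cells to increase, 2 were well above background, miR-34a and miR-155. miR-155, an immune-linked miRNA, read between 5.63 and 5.88 in control and between 5.71 and 5.93 with TGFβ, a difference of 0.05 (SE 0.15). miR-192, miR-214 and miR-199a, reported beside miR-21 in fibrotic kidney, were detected on 0 arrays. Of 14 reported to fall or to restrain fibrosis, 7 were detected on at least 1 array and 6 were tested. One of these, miR-30d, was tested because all 3 TGFβ arrays detected it, against 1 control array. The 5 detected on all 6 arrays had a median difference of 0.13, with 3 above 0 and 2 below, against -0.13 over the 70 miRNAs detected on all arrays. In the collagen-targeting miR-29 family the differences were 0.39 (SE 0.25) for miR-29a, 0.23 (SE 0.37) for miR-29b and 0.13 (SE 0.21) for miR-29c. miR-30a, of the kidney epithelial miR-30 family, differed by -0.68 (SE 0.33), miR-30d by 0.27 (SE 0.23) and miR-26a by -0.22 (SE 0.27). With all 6 arrays at equal weight 0 of the 8 tested members passed in limma, against 0% of all 84. Without control 1, miR-34a (1.31, adjusted p = 0.0140), miR-29a (0.63, adjusted p = 0.0256) and miR-30a (-0.998, adjusted p = 0.0264) passed in limma, in a fit where 36.5% of all tested did.

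The tubule epithelial miRNAs listed as markers were not detected in these cells. None of 9 tubule epithelial markers, among them the miR-200 family, miR-192 and miR-204, was detected on an array. None of 5 mesenchymal or smooth muscle, 6 blood and 2 endothelial markers was either. The miR-30 family, also abundant in kidney epithelium, was not on the marker list. Of its members miR-30a was detected on 6 arrays, miR-30c and miR-30d on 4, and miR-30b and miR-30e on 0.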

How the data were processed

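MicroRNA was measured on Agilent one-colour (Cy3) arrays in 3 control and 3 TGFβ samples, grouped by sample title. Per the file headers, the deposited values are spot intensity after Agilent Feature Extraction subtracted the background, with arrays left unscaled. Other deposited values used were 0 or 1 flags for outlier, saturated and detected spots, per the file headers. Its version is 10.7.3.1 in the headers, while 10.1.1 stands in the submitters' processing notes. The deposited value table equals this processed intensity, with a largest absolute difference of 0.

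Spots of a probe were averaged without outlier-marked spots. Probe values were divided by each array's 75th percentile over 105 probes well above background on all arrays (249.5 to 402.4 units) and multiplied by the geometric mean of the 6 percentiles. Probes of a miRNA were averaged, and values under 1 were set to 1 before log2. A probe was called detected where at least 0.5 of its spots were well above background, and a miRNA where 1 probe was. miRNAs detected throughout a group were tested, 84 of 611. Between 74 and 103 entries were detected per array, and the number of arrays limits the precision. limma 3.58.1 in R 4.3.3 was used with Benjamini-Hochberg adjustment, two-sided, after a test on simulated data; figures used matplotlib 3.10.9.

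Same-numbered samples deviated together from their group means (r = 0.38, 0.37 and 0.52 for numbers 1 to 3). The replicate block was taken as a pairing on this basis, although the labels do not say what a number stands for. Samples with different numbers were not compared, so these r cannot show that the numbers mark pairs. For miR-21 itself, number 3 deviated by -0.11 in control and by 0.26 with TGFβ. The named miRNAs were miR-21 and its star form, seed sharers, rank neighbours, the 5 most and 3 least alike, tested list members and the smallest p in each direction; miR-1224 was named after its values were seen. Members and lists were chosen with earlier results of these data known. Normexp used median spot and background signals with an offset of 50.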

Additional observations from a re-analysis of the deposited data

How the results depend on the processing

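miR-21 kept its direction in 23 of 24 alternatives and its side of the threshold in 22. Some of these could not move its difference, which stayed at 0.40. They were the other filters on which miRNAs were tested, the floor of 5, the replicate block and the variance trend. The count of 23 is therefore no measure of robustness. With quantile normalization it was -0.55, and probe A_54_P1307 -0.64. Array weights gave 0.69, and 0.71 and 0.63 for A_54_P1307 and A_54_P1308 (limma adjusted p = 0.0146, 0.0117 and 0.0288). Without slide column 1, an alternative chosen after seeing the data like that of the array-column spots, these were 0.78, 0.78 and 0.77 (limma adjusted p = 0.0151, 0.0216 and 0.0216). Leaving out 1 replicate in turn gave 0.26 to 0.59 for miR-21, 0.26 to 0.59 for A_54_P1307 and 0.25 to 0.66 for A_54_P1308, lowest for miR-21 without control 2. The count of miRNAs past the threshold, 0 with all arrays, was 1 with the replicate block, 3 with the slide row as a block, 45 with array weights, 38 without slide column 1 and 0 to 31 with 1 replicate left out, 31 being without control 1. The replicate block changed no other call given here. Of 17 other named miRNAs, 0 passed as reported, 8 without control 1 (36.5% of all tested passed there), 12 with array weights (53.6%) and 11 without slide column 1 (44.2%). Several of the 17 were named for their p or their r with miR-21 on these same arrays. That choice favours passing, so their share cannot be read against that of all tested. miR-20b and miR-449a, which passed in all 3 of these fits, were detected on 1 control and 3 TGFβ arrays. The sign turned in the following cases. Without scaling, let-7c was 0.22, let-7a 0.16 and miR-26a 0.13. With quantile normalization, miR-155 was -0.022 and miR-29c -0.096. With normexp, miR-20b was -0.11, miR-449a -0.18, miR-1906 -0.074, miR-155 -0.11, miR-29c -0.11 and miR-30d -0.13. With the slide column as a block, miR-29b was -0.17 and miR-29c -0.11. With the slide row, miR-155 was -0.027 and miR-26a 0.026. With total gene signal, let-7c was 0.017. With 1 replicate left out, miR-29b ran from -0.080 to 0.54, miR-29c from -0.066 to 0.23 and miR-155 from -0.022 to 0.12. The cause of these turns was not tested.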

Other observations

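The shared spot pattern seen for miR-21 held across the array. Over 1028 spots of the 105 detected probes, the log2 deviation of each spot from its probe's mean correlated with r = 0.81 between control 1 and TGFβ 2 and with 0.31 between control 2 and TGFβ 3, the pairs that shared a slide column. In the 13 pairs from different slide columns r lay between -0.13 and 0.20. The median log2 ratio of spots in array columns above 41 to the others was 0.24 on control 1 and 0.20 on TGFβ 2 over 103 probes, while the other 4 arrays ranged from -0.08 to 0.02. Spots are not independent samples, so these are descriptions.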
